A study of Ovis aries with 12 samples.

Results

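Right ventricle from shunt lambs (4 libraries) was set against that from fetal lambs (4 libraries), 8 of the study's 12 libraries. The comparison covers the 13065 genes that could be tested. The shunt libraries came from lambs aged 4 to 6 weeks in which a graft joining the aorta to the pulmonary artery had been placed by an operation before birth. The graft carries blood from left to right and keeps the right ventricle under pressure after birth. The 4 fetal libraries came from lambs before birth, with no age given in the labels. The 4 control libraries came from control lambs of 4 to 6 weeks. Control values are set side by side, and the control libraries also entered the gene filter, the scaling and the estimate of spread behind every p-value of a gene. All libraries were made from snap-frozen free wall of the right ventricle, the chamber that pumps blood to the lungs. The breed and sex of the lambs are not given in the labels, and of the 3 groups only the shunt lambs are described as operated on. The comparison asks which of the changes that a right ventricle goes through between fetal life and the first weeks after birth also take place when its load stays high.

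Before birth lung resistance is high, and the right ventricle works at a pressure like that of the left and sends most of its output through the ductus arteriosus to the body. After birth lung resistance falls, the right ventricle is unloaded, and its muscle moves from glucose and lactate towards fatty acids as fuel, while cardiomyocytes largely stop dividing. Fatty acids enter the cell, are bound by small carrier proteins, cross the mitochondrial membrane as carnitine esters and are oxidised, and the respiratory chain then uses the electrons to make ATP. Shunt lambs pass through birth as well, but the pressure load on the right ventricle remains.

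Shunt 1 and shunt 2 stood apart from the other libraries. The 13 mitochondrially encoded protein genes took 72.6%, 71.4%, 54.6% and 45.6% of the counts in shunt 1 to shunt 4 and 29.6%, 26.7%, 41.2% and 34.9% in fetal 1 to fetal 4. The means were 61.1% ± 13.1 and 33.1% ± 6.39 (SD, n = 4), a difference that a two-sided exact permutation test gave p = 0.0286, the smallest that 4 against 4 libraries allow. Without shunt 1 and shunt 2 the shares were 50.1% and 33.1%, and the exact permutation p was 0.0667, again the smallest possible. Total counts ranged from 19111348 to 44946875 over the 12 libraries, and correlations of log2 CPM (counts scaled to library size) between libraries of a group were 0.960 to 0.968 in the fetal and 0.896 to 0.943 in the shunt group. Of the defining markers listed for cardiomyocytes only MYL2 carried a symbol, of those for endothelium only KDR, and of those for leukocytes only CD14, while none for fibroblast did, so the tissue label could be checked on few genes. MYL2, the ventricular light chain of myosin, stood at 11659, 10550.1, 16327 and 13426 CPM in fetal and 10034, 15308, 15059 and 16353 CPM in shunt libraries. The groups overlapped and the gene was not called. The labels do not say that the libraries of a group came from different animals, and the p-values therefore rest on the spread among these libraries, which could be technical.

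All log2 changes below are shunt minus fetal and relative to TMM scaling (trimmed mean of M values), which assumes that most genes keep their level. Without it, when counts are divided by library totals alone, the median of all genes is -1.02. That is a median and not a bound, and somewhat larger changes can turn their sign too, such as that of IRAK4 from 1.09 to -0.10. In bulk tissue, fewer cells of a type and less RNA per cell cannot be told apart.

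Of the 13065 genes tested, 2048 (15.7%) passed edgeR's quasi-likelihood test of shunt against fetal libraries at a Benjamini-Hochberg adjusted p under 0.05. Of these 1197 (9.16%) were higher and 851 (6.51%) lower in shunt libraries, and 4280 genes had an unadjusted p under 0.05. The change reached 2-fold for 666 of the higher and 563 of the lower genes and 4-fold for 181 and 187. With library totals the same test gave 137 higher and 7796 lower genes, so that the share called higher went from 58.4% to 1.73%, and 988 of the 2048 kept their call and sign. The 4 shunt and 4 fetal libraries did not overlap for 2484 genes (19%), of which 1656 were called. Without shunt 1 and shunt 2 the count was 1314, and 920 of the 2048 stayed called. It was 963, 1141, 957 and 1226 without fetal 1, fetal 2, fetal 4 and shunt 2. Of the 479 genes with a symbol 94 were called (19.6%), 65 higher and 29 lower, and 66 of these are named below by rule. Every count of called list members below stands beside that 19.6% and the 15.7% over all genes.

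**Figure D1:**
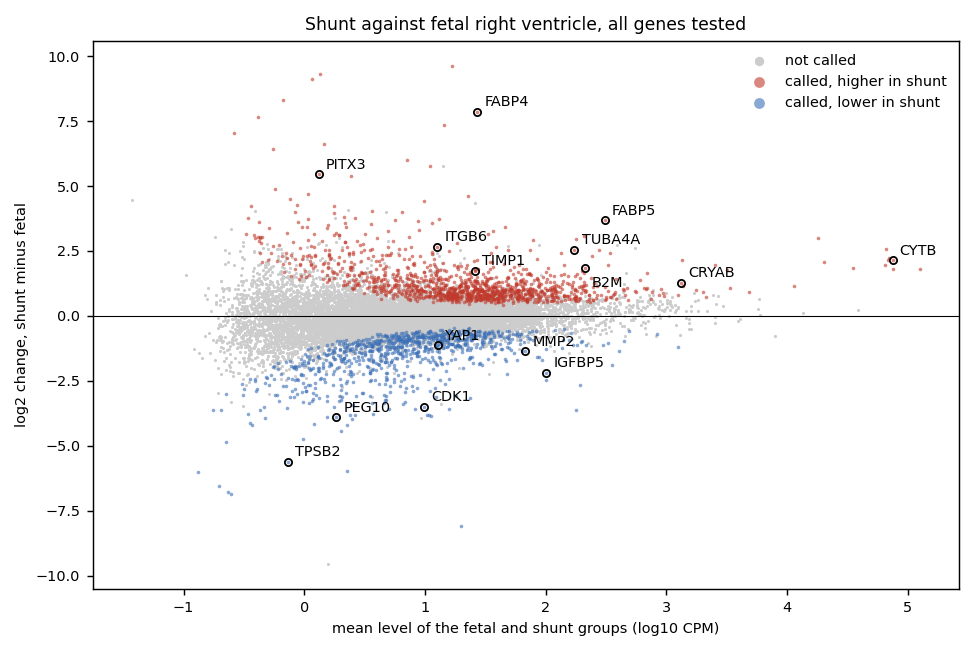
Log2 change of shunt minus fetal (vertical axis) against the mean level of both groups in log10 CPM (horizontal axis), 1 point for each of 13065 genes. Called genes are red (1197 higher) and blue (851 lower), grey genes were not called, and 15 named genes are ringed: FABP4 and PITX3 lie far above most genes, while TPSB2, PEG10 and CDK1 lie far below.

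Some genes of fatty acid handling were higher in the shunt than in the fetal ventricle. Of 14 tested genes for fatty acid oxidation and uptake of lipid FABP5, FABP4, UCP2 and SLC25A20 rose, 0 fell and 10 were not called. FABP5 (ENSOARG00000008976), a carrier of fatty acids in the cytoplasm, stood at 34.4, 31.7, 67.9 and 42.2 CPM in fetal 1 to fetal 4 and at 531, 976, 425 and 348 CPM in shunt 1 to shunt 4. All 4 shunt values were above all 4 fetal ones, and the mean went from 44.1 ± 16.5 to 570.2 ± 281 CPM (SD, n = 4; log2 change 3.69, SE 0.373, edgeR adjusted p = 0.000179). FABP4 (ENSOARG00000009344), its relative known from fat cells, macrophages and the endothelium of small vessels, had 0.0471, 0.0649, 0.923 and 0.0586 CPM in fetal and 36.2, 63.1, 113 and 3.3 CPM in shunt libraries. The groups did not overlap, but shunt 4 was far below the other shunt libraries (log2 change 7.86, SE 1.5, edgeR adjusted p = 0.00816). Its call ended with limma voom, at 7.93 (adjusted p = 0.132). Summed over the libraries it had 27 counts in fetal and 5065 in shunt tissue, a ratio of 285, with an exact 95% interval of 196 to 433. Such intervals cover counting error only.

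UCP2, a carrier of the inner mitochondrial membrane, stood at 2.14, 1.56, 1.41 and 1.41 CPM in fetal and 9.15, 5.9, 6.2 and 11.8 CPM in shunt libraries, with no overlap (log2 change 2.34, SE 0.497, edgeR adjusted p = 0.00802), and its call ended with limma voom, at 2.27 (adjusted p = 0.12). SLC25A20, the carrier that takes acylcarnitines into mitochondria, had 21.4, 18.8, 26.5 and 30.3 CPM in fetal and 46.7, 71.8, 45.6 and 45.8 CPM in shunt libraries, again with no overlap (log2 change 1.11, SE 0.209, edgeR adjusted p = 0.00414). With library totals its change was 0.048 (adjusted p = 0.863). Shunt 2 was the high library of that group. The muscle enzyme CPT1B, which makes the acylcarnitines, stood at 0.63 (95% interval 0.14 to 1.12, adjusted p = 0.0719), and lipoprotein lipase LPL, which frees fatty acids from circulating fat, at 0.52 (95% interval -0.24 to 1.28, adjusted p = 0.328), or 0.23 without shunt 2. The 14 genes had a median log2 change of 0.58, beside -0.01 over all genes tested, which turned to -0.42 with library totals. PPARG, the transcription factor of fat storage, stood at 1.91, 2.4, 3.56 and 1.23 CPM in fetal and 10.3, 7.57, 5.14 and 4.35 CPM in shunt libraries (log2 change 1.59, SE 0.365, edgeR adjusted p = 0.0114). Its call ended without shunt 1 and shunt 2, at 1.06 (adjusted p = 0.0932). FABP4 and PPARG were the 2 called among 7 adipocyte genes, of which 4 had positive and 3 negative changes. Their median was 0.33, or -0.09 without shunt 1 and shunt 2. The summed level of the 7 was 26.6 to 33.5 CPM in fetal and 62.3, 95.3, 137.7 and 26.7 CPM in shunt 1 to shunt 4. FABP4 alone gave 36.2, 63.1, 113 and 3.3 CPM of those shunt sums. ADIPOQ, the defining hormone of fat cells, had a log2 change of 0.90 with no call, and the part of fat cells in these values was not tested. None of 8 glycolysis genes was called, with a median of -0.23.

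**Figure D2:**
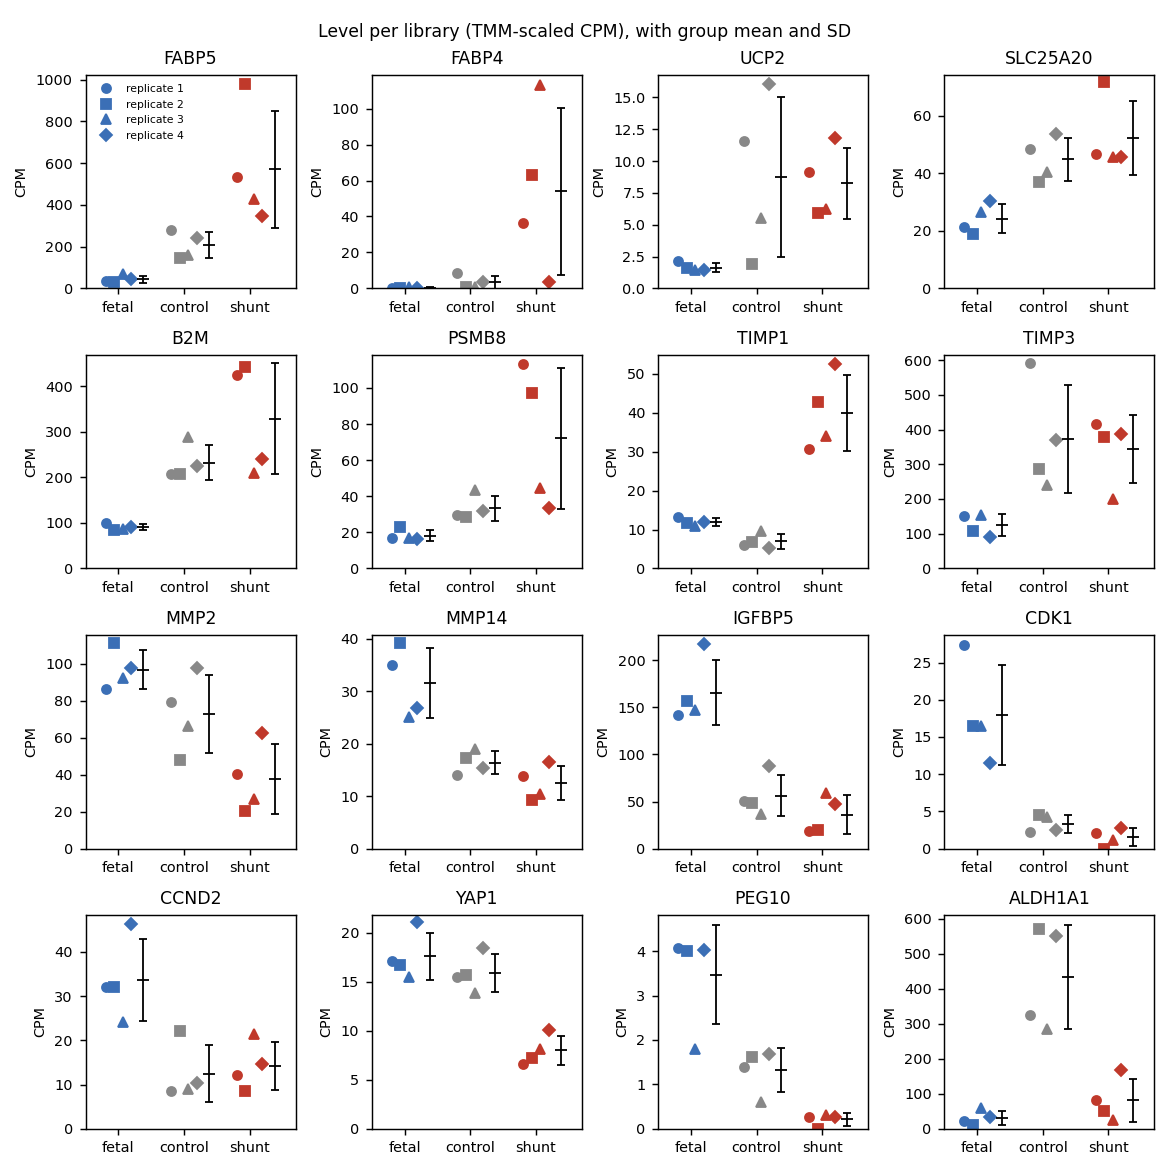
TMM-scaled CPM of 16 genes in each library, fetal in blue, control in grey and shunt in red, with a marker shape for each replicate number. The black bar is the group mean with its SD (n = 4). FABP5, B2M, PSMB8 and TIMP1 are above every fetal library in all 4 shunt libraries, and MMP14, IGFBP5, CDK1, YAP1 and PEG10 are below.

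All 13 mitochondrially encoded genes rose, as did 5 of 10 nuclear genes listed for oxidative phosphorylation, among them the ADP/ATP carriers SLC25A4 and SLC25A5. The 13 encode core subunits of the respiratory chain and, with ATP6 and ATP8, subunits of the membrane part of ATP synthase. CYTB, a subunit of complex III, stood at 17132, 20289, 43368 and 30189 CPM in fetal and 173238, 154655, 99649 and 59820.2 CPM in shunt libraries, with no overlap (log2 change 2.13, SE 0.364, edgeR adjusted p = 0.00278). The 13 log2 changes ran from 1.65 for ND6 to 2.99 for ND3, with a median of 1.97 and of 0.81 with library totals. Together they are the mitochondrial share given above, so they are not independent results. Without shunt 1 and shunt 2 the median was 1.21, and ND1, ND4L, ND5, ND6 and ATP8 lost the call, at 0.91 (adjusted p = 0.0905), 1.03 (adjusted p = 0.0914), 1.14 (adjusted p = 0.062), 0.80 (adjusted p = 0.0923) and 1.11 (adjusted p = 0.0575). Of 10 nuclear-encoded genes of oxidative phosphorylation 5 rose and 0 fell, with a median of 0.64 that turned to -0.36 with library totals.

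SLC25A4, the ADP/ATP carrier of heart and muscle, stood at 1689.6, 2007, 3099 and 1893 CPM in fetal and 4315, 5561, 4097 and 4259 CPM in shunt libraries, with no overlap (log2 change 1.07, SE 0.229, edgeR adjusted p = 0.00806). With library totals its change was 0.046 (adjusted p = 0.856). Its relative SLC25A5, prevalent in dividing cells, stood at 7.24 to 10.5 CPM in fetal and 10.4 to 15.6 CPM in shunt libraries, with fetal 1 above shunt 2 (log2 change 0.72, SE 0.196, edgeR adjusted p = 0.0249), and its call ended without fetal 2, fetal 3 or fetal 4 (adjusted p up to 0.0734). The complex I subunit NDUFA12 rose (log2 change 0.97, SE 0.227, edgeR adjusted p = 0.0121). The complex I subunit NDUFB6 and the ATP synthase subunit ATP5PD had log2 changes of 0.96 (adjusted p = 0.0232) and 1.01 (adjusted p = 0.019) by edgeR, and both calls ended without shunt 1 and shunt 2, at 0.66 (adjusted p = 0.114) and 0.61 (adjusted p = 0.087). The call of NDUFB6 also ended without fetal 1, fetal 2, fetal 4 or shunt 2 (adjusted p up to 0.0756), and that of ATP5PD without fetal 1, fetal 2 or fetal 4 (adjusted p up to 0.0628). With library totals SLC25A5, NDUFA12, NDUFB6 and ATP5PD turned to -0.28, -0.055, -0.094 and -0.097. FABP5, SLC25A5 and TUBA4A have close relatives or processed copies in mammals. Since the handling of reads they share was not stated, their levels are uncertain.

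Only 2 mitosis genes, CDK1 and AURKA, could be tested, and both were called lower in shunt libraries. CDK1 (ENSOARG00000004318), the kinase that starts mitosis, stood at 27.4, 16.5, 16.5 and 11.5 CPM in fetal and 2.12, 0, 1.19 and 2.81 CPM in shunt libraries. No shunt library reached the lowest fetal one, and shunt 2 had none (log2 change -3.50, SE 0.594, edgeR adjusted p = 0.00299). The spindle kinase AURKA stood at 7.42, 3.51, 7.43 and 5.01 CPM in fetal and 4.1, 2.73, 1.12 and 1.61 CPM in shunt libraries, with shunt 1 above fetal 2 (log2 change -1.32, SE 0.42, edgeR adjusted p = 0.0462), and its call ended in 8 of the 12 fits that left out 1 library each (adjusted p up to 0.125). CCND2, the D-type cyclin that lets cells enter the cycle, was the 1 call among 12 cyclins, inhibitors and growth regulators, at 32.1, 32, 24.2 and 46.3 CPM in fetal and 12.1, 8.54, 21.5 and 14.6 CPM in shunt libraries with no overlap (log2 change -1.24, SE 0.337, edgeR adjusted p = 0.0256). Its call ended without shunt 1 and shunt 2, at -0.92 (adjusted p = 0.172), and without fetal 1, fetal 2, fetal 4, shunt 1 or shunt 2 (adjusted p up to 0.0821). CDKN1A, the inhibitor p21, stood at 1.19 (95% interval 0.33 to 2.06, adjusted p = 0.0587) in the other direction, and was called without shunt 1 and shunt 2, at 1.82 (adjusted p = 0.000882).

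YAP1, the effector of the Hippo pathway that drives growth of the fetal heart, stood at 17.1, 16.7, 15.5 and 21.1 CPM in fetal and 6.62, 7.22, 8.17 and 10 CPM in shunt libraries. The groups did not overlap and the shunt mean was 8.01 ± 1.49 CPM against 17.6 ± 2.42 CPM (log2 change -1.13, SE 0.187, edgeR adjusted p = 0.00274). Its target CCN2, a matrix protein, stood at 27.2, 45.3, 41.9 and 8.99 CPM in fetal and 1.64, 3.43, 18.6 and 6.67 CPM in shunt libraries with overlap (log2 change -1.99, SE 0.656, edgeR adjusted p = 0.0572), and YAP1 was the 1 call among 4 Hippo genes. IGFBP5, which binds insulin-like growth factors, stood at 142, 156, 147 and 217 CPM in fetal and 18.3, 19.7, 59.4 and 47.2 CPM in shunt libraries. It fell with no overlap (log2 change -2.19, SE 0.376, edgeR adjusted p = 0.0029), the 1 call among 5 binding proteins. PEG10, an imprinted gene that is active in placenta and fetal tissue, had 4.07, 3.99, 1.8 and 4.01 CPM in fetal and 0.273, 0, 0.304 and 0.262 CPM in shunt libraries, or 474 against 21 summed counts, a ratio of 0.0674, with an exact 95% interval of 0.0413 to 0.104 (log2 change -3.89, SE 0.539, edgeR adjusted p = 0.000877).

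The matrix genes moved both ways. Of 17 matrix genes TIMP1, TIMP3 and ITGB6 rose and MMP2, MMP14 and PLAU fell, and 11 were not called. TIMP1 (ENSOARG00000013157), which blocks matrix metalloproteinases, stood at 13.3, 11.7, 10.8 and 11.8 CPM in fetal and 30.8, 42.8, 33.9 and 52.5 CPM in shunt libraries with no overlap (log2 change 1.75, SE 0.221, edgeR adjusted p = 0.000527). TIMP3, a matrix-bound inhibitor of the same family, stood at 151, 109, 154 and 89.5 CPM in fetal and 415, 378, 199 and 387 CPM in shunt libraries with no overlap (log2 change 1.46, SE 0.307, edgeR adjusted p = 0.0076), and its call ended without shunt 1 and shunt 2, at 1.22 (adjusted p = 0.0607). ITGB6, an integrin subunit known from epithelia and from activation of TGF beta, stood at 3.89, 1.53, 5.58 and 2.84 CPM in fetal and 28.6, 26.9, 18.8 and 13.1 CPM in shunt libraries with no overlap (log2 change 2.66, SE 0.347, edgeR adjusted p = 0.000709). MMP2, a gelatinase, stood at 86.3, 111, 92.2 and 97.7 CPM in fetal and 40.5, 20.3, 27.1 and 62.9 CPM in shunt libraries with no overlap (log2 change -1.36, SE 0.304, edgeR adjusted p = 0.00993), and its call ended without shunt 1 and shunt 2, at -1.11 (adjusted p = 0.061).

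MMP14, the membrane protease that activates MMP2, stood at 35.1, 39.3, 25.1 and 26.8 CPM in fetal and 13.9, 9.33, 10.5 and 16.5 CPM in shunt libraries, with no overlap (log2 change -1.33, SE 0.217, edgeR adjusted p = 0.0026). PLAU, the urokinase gene, had a log2 change of -0.94 (adjusted p = 0.0355) by edgeR, with shunt 1 inside the fetal range, and its call ended without fetal 1, fetal 2, fetal 3, shunt 2 or shunt 4 (adjusted p up to 0.104). Of 9 TGF beta and fibroblast genes 2 fell and 0 rose, a share near the 19.6% called among all genes with a symbol, with a median of -0.64. They were SMAD4, the shared mediator of the pathway, and the growth factor TGFB1, at -0.82 (adjusted p = 0.0299) and -0.66 (adjusted p = 0.037) by edgeR. Both calls ended without shunt 1 and shunt 2, at -0.51 (adjusted p = 0.162) and -0.48 (adjusted p = 0.157). The call of SMAD4 also ended without fetal 1, fetal 2, fetal 3, fetal 4, shunt 1 or shunt 2 (adjusted p up to 0.0895), and that of TGFB1 in 7 of the 12 fits that left out 1 library each (adjusted p up to 0.0973).

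The contractile genes with a symbol were not called in the 12 libraries, and genes known to respond to load varied widely among shunt libraries. Of 4 sarcomere and muscle genes 0 were called, with TPM1, MYOZ2 and MYL2 at 0.26, 0.35 and 0.13 and the oxygen store MB at 0.64 (95% interval 0.13 to 1.15, adjusted p = 0.0801). TPM1 and MB were called without shunt 1 and shunt 2, at 0.64 (adjusted p = 0.0379) and 0.84 (adjusted p = 0.0372). NPPA and NPPB, which encode the natriuretic peptides made under wall stress, were not called. NPPA was also the 1 gene of 8 listed for the atrium that could be tested, and the part of atrial tissue in its values was not tested. NPPA stood at 99.3, 373, 91.7 and 60.6 CPM in fetal and 69.2, 142, 3589 and 9.85 CPM in shunt libraries. Shunt 3 was far above all other libraries and shunt 4 below all fetal ones, and the log2 change was 2.61 (95% interval -1.02 to 6.24, adjusted p = 0.295), or -1.09 without shunt 3. NPPB had 142, 402, 239.5 and 108 CPM in fetal and 68.4, 205, 2520.0 and 6.18 CPM in shunt libraries, with the same libraries at the ends (log2 change 1.65, 95% interval -1.73 to 5.03, adjusted p = 0.483), or -1.26 without shunt 3. ANKRD1, a stretch-responsive gene of cardiomyocytes, stood at 1695, 1369.8, 1966 and 1765 CPM in fetal and 391, 501, 3075 and 1591 CPM in shunt libraries, with shunt 1 and shunt 2 below and shunt 3 above every fetal library (-0.29, adjusted p = 0.739).

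CRYAB, the small heat shock protein that protects myofibrils, was the 1 called wall stress gene of 7. It stood at 664, 675, 917 and 831 CPM in fetal and 1357, 2082, 2357 and 1653 CPM in shunt libraries, with no overlap (log2 change 1.27, SE 0.216, edgeR adjusted p = 0.00278). With library totals its change was 0.27 (adjusted p = 0.358). TUBA4A, an alpha-tubulin of the microtubules, was the 1 call of 4 cytoskeleton genes and rose from 27.7, 59.5, 43.7 and 70.3 CPM in fetal to 184, 436, 349 and 212 CPM in shunt libraries with no overlap (log2 change 2.55, SE 0.364, edgeR adjusted p = 0.00114). Among the 11 tested genes listed for endothelium and vascular tone 0 were called, but EDNRA and CD93, described after them, are not on that list and were called. KDR, the receptor of vascular endothelial growth factor, stood at 82.7 to 96 CPM in fetal and 36.4 to 82.1 CPM in shunt libraries (-0.41, 95% interval -0.88 to 0.06, adjusted p = 0.207), and VEGFA at 0.35 (95% interval -0.06 to 0.76, adjusted p = 0.222). EDNRA, the endothelin receptor of smooth muscle, stood at 12 to 25.6 CPM in fetal and 1.71 to 10 CPM in shunt libraries with no overlap (log2 change -1.70, SE 0.437, edgeR adjusted p = 0.0203), and CD93, a surface protein of endothelium, at -1.07 (adjusted p = 0.0455). Both calls ended without shunt 1 and shunt 2, at -1.14 (adjusted p = 0.0737) and -0.80 (adjusted p = 0.247), and that of EDNRA without fetal 1, fetal 4 or shunt 2 (adjusted p up to 0.0651) and that of CD93 in 11 of the 12 fits that left out 1 library each (adjusted p up to 0.145). RELN, the 1 lymphatic gene tested, was at -1.91 (adjusted p = 0.0451), and its call ended in 9 of the 12 fits that left out 1 library each (adjusted p up to 0.109) and without shunt 1 and shunt 2, at -1.62 (adjusted p = 0.214).

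Part of the antigen presentation genes were higher in shunt libraries. Of 14 genes of antigen presentation and interferon 5 rose, among them B2M, PSMB8, IRF1 and TAPBP, and 0 fell. The list's median was 0.35, which turned to -0.71 with library totals. B2M, the small shared chain of the class I complex, stood at 100.3, 84.5, 87.2 and 90.8 CPM in fetal and 425, 442, 209 and 239.6 CPM in shunt libraries, with no overlap (log2 change 1.86, SE 0.247, edgeR adjusted p = 0.000776). PSMB8, a subunit of the immunoproteasome, stood at 16.9, 22.7, 16.9 and 16.4 CPM in fetal and 114, 97.1, 44.8 and 33.4 CPM in shunt libraries with no overlap (log2 change 1.98, SE 0.33, edgeR adjusted p = 0.00278). Shunt 1 and shunt 2, the libraries with the highest mitochondrial share, were highest for both genes, and without them the log2 changes were 1.29 (adjusted p = 0.000722) and 1.08 (adjusted p = 0.00564). IRF1, a transcription factor of the interferon response, was at 1.46 (adjusted p = 0.0139). TAPBP, which helps load class I molecules, was at 0.52 (adjusted p = 0.037) by edgeR. Its call ended without shunt 1 and shunt 2, at 0.37 (adjusted p = 0.135), and without fetal 1, fetal 3, fetal 4, shunt 1 or shunt 2 (adjusted p up to 0.106), and its sign turned with library totals, to -0.55.

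NFKBIA, the inhibitor that holds NF-kappa B in the cytoplasm, stood at 89.9, 117, 61 and 53.6 CPM in fetal and 426, 699.8, 311 and 162 CPM in shunt libraries with no overlap (log2 change 2.32, SE 0.385, edgeR adjusted p = 0.00278). Of 9 toll-like receptor genes 2 rose and 0 fell, a share near the 19.6% called among all genes with a symbol. The list's median was 0.72, which turned to -0.13 with library totals. TLR5, the receptor of bacterial flagellin, stood at 0.518, 0.0649, 0.571 and 0.381 CPM in fetal and 2.05, 8.63, 0.881 and 2.32 CPM in shunt libraries with no overlap and with shunt 2 the highest (log2 change 3.13, SE 0.673, edgeR adjusted p = 0.00827), and IRAK4, a kinase of the receptors, at 1.09 (adjusted p = 0.0371). The call of IRAK4 ended without shunt 1 and shunt 2, at 0.38 (adjusted p = 0.443), and without fetal 1, fetal 2, fetal 3, fetal 4, shunt 1 or shunt 2 (adjusted p up to 0.123), and its sign turned with library totals, to -0.10. None of the 7 tested genes on the myeloid list was called. Their summed level was 8.81 to 16.4 CPM in fetal and 13.9 to 28.5 CPM in shunt libraries, with MRC1, the macrophage mannose receptor, at 0.97 (adjusted p = 0.0584). SLC11A1, a transporter known from macrophages, is not on that list and not counted among the named genes. It was called at 4.26 (adjusted p = 0.00946) by edgeR with no overlap, on 10 summed counts in fetal and 103 in shunt libraries. Its call ended without shunt 1 and shunt 2, at 2.71 (adjusted p = 0.0933). Of 4 lymphocyte genes 1 rose and was called, and 3 had negative changes with no call, with a median of -0.30. The riser was GNLY, a granule protein of cytotoxic cells, which went from 9 to 67 summed counts, a ratio of 11.3, with an exact 95% interval of 5.62 to 25.8 (log2 change 3.16, SE 0.885, edgeR adjusted p = 0.0286), and shunt 2 had none. Its call ended without fetal 1, fetal 2, fetal 3, fetal 4 or shunt 3 (adjusted p up to 0.0717). XCL1, a chemokine of such cells that is not on that list, was at 1.96 (adjusted p = 0.0417), and its call ended in 11 of the 12 fits that left out 1 library each (adjusted p up to 0.109) and without shunt 1 and shunt 2, at 1.43 (adjusted p = 0.231). TPSB2, the tryptase of mast cells and the 1 mast cell gene tested, fell from 183 to 2 summed counts, a ratio of 0.0166, with an exact 95% interval of 0.0020 to 0.0609 (log2 change -5.61, SE 0.982, edgeR adjusted p = 0.00308). It stood at 1.39, 0.682, 1.8 and 1.82 CPM in fetal and 0.137, 0, 0 and 0 CPM in shunt libraries, with no overlap. Without shunt 1, which held both counts, its fitted change was -8.45, a value that depends on the prior count since the other shunt libraries had 0. The part of cell numbers in these results was not tested.

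Among regulators, PITX3, a homeobox factor known from the lens and midbrain of other mammals, rose from 7 to 212 summed counts, a ratio of 46, with an exact 95% interval of 22 to 116 (log2 change 5.44, SE 0.861, edgeR adjusted p = 0.00229). Its call ended with limma voom, at 5.88 (adjusted p = 0.0674). It stood at 0, 0.162, 0 and 0.0586 CPM in fetal and 2.66, 3.17, 2.92 and 1.54 CPM in shunt libraries, and the groups did not overlap. NR3C1, the glucocorticoid receptor, fell from 59.7, 48.4, 45.8 and 60 CPM in fetal to 32.4, 31.5, 32.1 and 30.9 CPM in shunt libraries with no overlap (log2 change -0.75, SE 0.165, edgeR adjusted p = 0.00873), and the 4 shunt values lay close together. THRA, a thyroid hormone receptor, stood at 104 to 122 CPM in fetal and 30.5, 38.3, 80.3 and 97.7 CPM in shunt libraries (-0.87, 95% interval -1.49 to -0.24, adjusted p = 0.0571), all below the fetal range. Of 10 clock genes NFIL3 rose and CRY1 fell, at 1.09 (adjusted p = 0.0289) and -0.62 (adjusted p = 0.0469). That share is near the 19.6% called among all genes with a symbol. NFIL3 represses clock output genes and CRY1 represses the clock itself. The call of NFIL3 ended without fetal 2, fetal 3, fetal 4 or shunt 4 (adjusted p up to 0.0842), with a change of 0.69 without shunt 4, its high library. That of CRY1 ended in 11 of the 12 fits that left out 1 library each (adjusted p up to 0.156) and without shunt 1 and shunt 2, at -0.62 (adjusted p = 0.115). The time of day of sampling is not given in the labels. The clock output genes TEF and HLF were at -1.07 (adjusted p = 0.0524) and -1.18 (adjusted p = 0.11), and FGF7, a growth factor of stromal cells, at -0.55 (adjusted p = 0.119).

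ATF4, the transcription factor of the integrated stress response, rose from 154, 148, 142 and 101 CPM in fetal to 255, 386, 220.1 and 235 CPM in shunt libraries with no overlap (log2 change 1.01, SE 0.213, edgeR adjusted p = 0.00771), which turned to -0.11 with library totals. PDXK, which activates vitamin B6, stood at 1.92 to 3.69 CPM in fetal and 7.75 to 11 CPM in shunt libraries (log2 change 1.75, SE 0.30, edgeR adjusted p = 0.00281), and the cytosolic isocitrate dehydrogenase IDH1, a source of NADPH, at 22.3 to 41.1 CPM in fetal and 59.8 to 144 CPM in shunt libraries (log2 change 1.61, SE 0.329, edgeR adjusted p = 0.00648). The call of IDH1 ended without shunt 1 and shunt 2, at 1.12 (adjusted p = 0.0669), as did that of the pseudouridine synthase PUS1, which went from 0.88 (adjusted p = 0.039) to 0.24 (adjusted p = 0.50). The call of PUS1 ended without fetal 1, fetal 3, fetal 4, shunt 1 or shunt 2 (adjusted p up to 0.118) too, and its sign turned with library totals, to -0.32. The sperm-protein gene SPA17 rose by a log2 change of 1.56 (adjusted p = 0.00278). Lower in shunt libraries were the sterol enzyme SQLE at -1.32 (adjusted p = 0.0132), the nuclear receptor NR5A2 at -1.55 (adjusted p = 0.0368), the chromatin protein PSIP1 at -0.87 (adjusted p = 0.00835), the membrane protein ITM2C at -1.11 (adjusted p = 0.0304) and the zinc transporter SLC39A13 at -0.93 (adjusted p = 0.0322). Without shunt 1 and shunt 2 SQLE, NR5A2, ITM2C and SLC39A13 lost the call, at -1.06 (adjusted p = 0.0719), -1.64 (adjusted p = 0.0987), -0.59 (adjusted p = 0.0705) and -0.84 (adjusted p = 0.113). The call of NR5A2 ended in 7 of the 12 fits that left out 1 library each (adjusted p up to 0.115), that of ITM2C without fetal 1, fetal 2, fetal 3, shunt 1 or shunt 2 (adjusted p up to 0.0816) and that of SLC39A13 without fetal 1, fetal 2, fetal 3, fetal 4, shunt 2 or shunt 3 (adjusted p up to 0.0988).

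**Figure D3:**
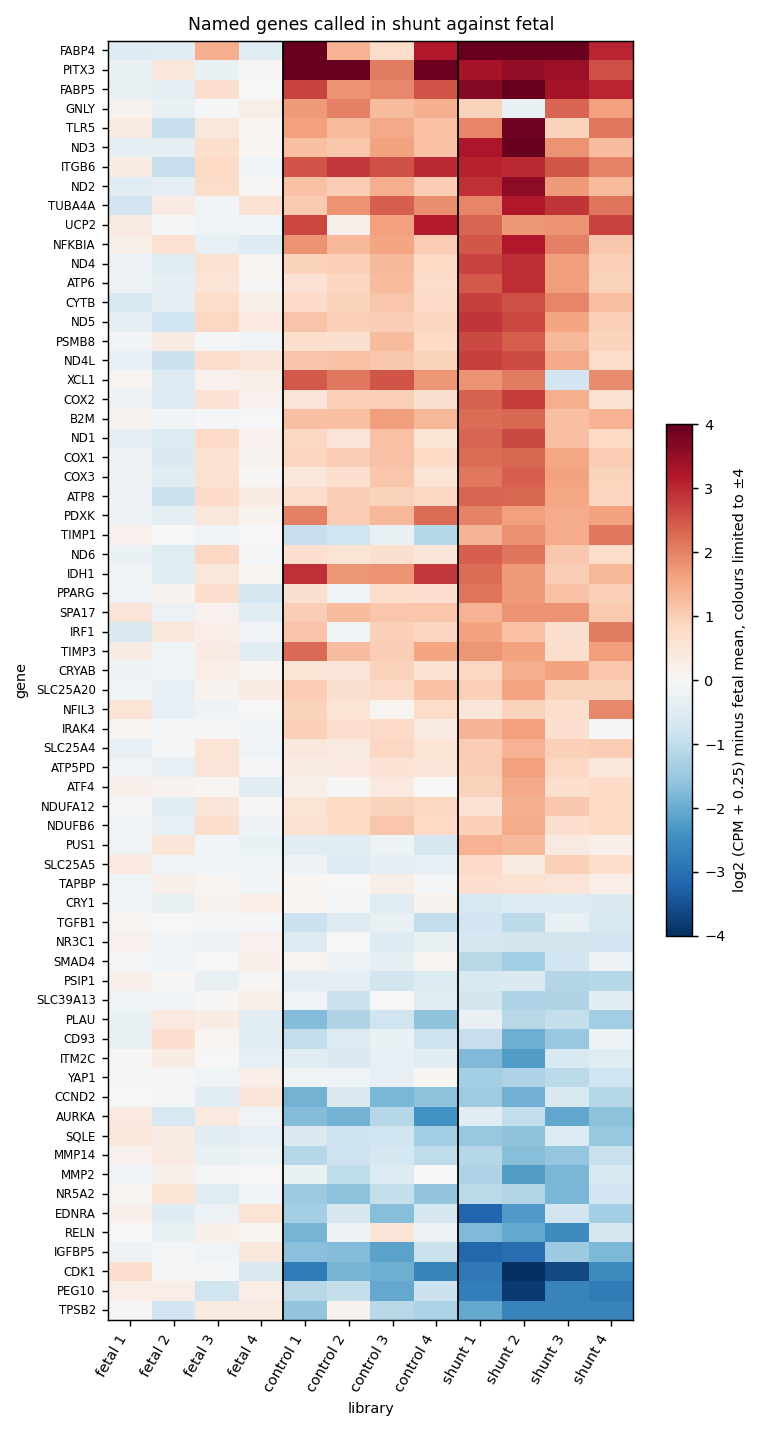
Log2 of CPM plus 0.25 minus the fetal mean for the 66 called and named genes (rows, sorted by log2 change) in the 12 libraries (columns, with black lines between the groups). Red is higher and blue lower than the fetal mean, with colours limited to 4 in either direction. Shunt 1 and shunt 2 are the darkest columns for the mitochondrially encoded genes, and the control columns show where a change is also seen in controls, as for ITGB6, or is not, as for TIMP1.

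Each list is described by its counts. Of the 241 listed symbols that matched a row 209 were tested, and 59 were called. The lists came from knowledge of the heart, but were chosen with earlier results of these data known, so their counts are not independent of the data. No test of enrichment was run. Beside these counts, 15.7% of all genes tested and 19.6% of genes with a symbol were called. List members make up 209 of the 479 tested genes with a symbol and 59 of the 94 called ones, so the 19.6% is not separate from the lists.

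**Figure D4:**
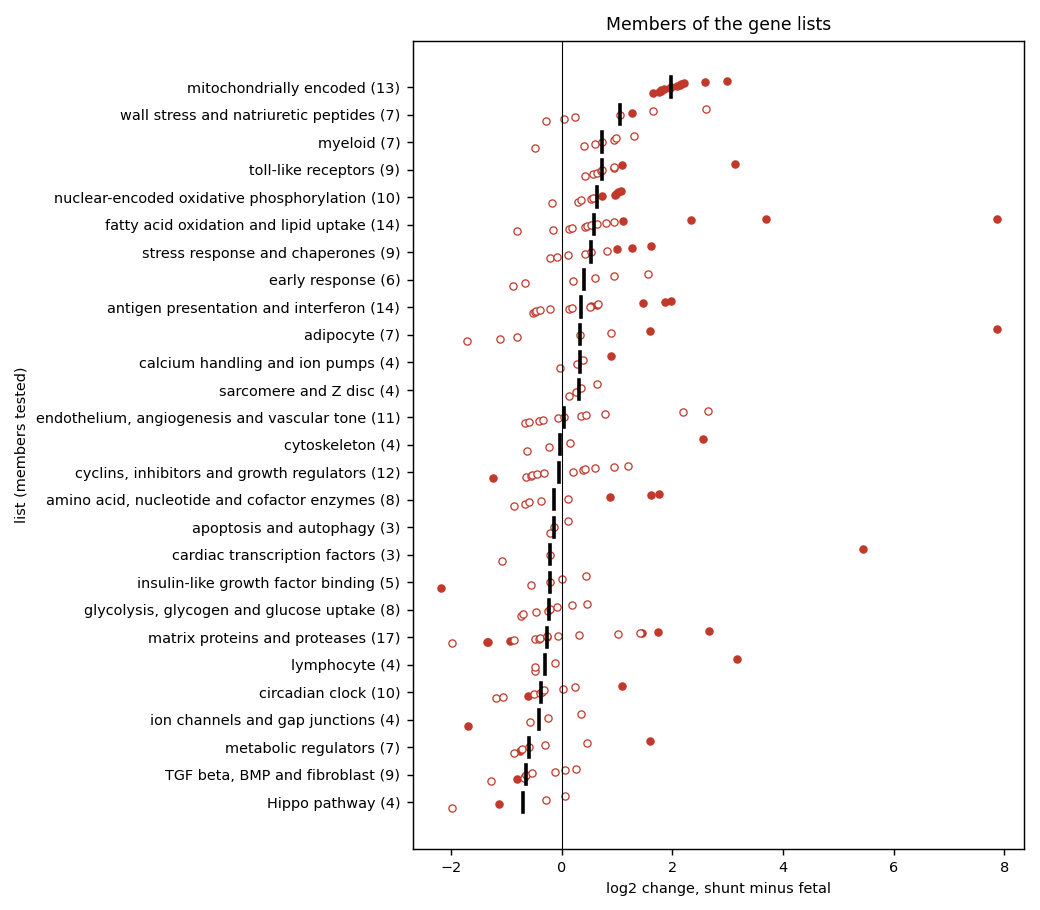
Log2 change of shunt minus fetal (horizontal axis) for the tested members of the 27 lists with at least 3 of them. Filled points were called, open points were not, and the black bar is the list's median. All 13 mitochondrially encoded genes are filled and to the right of 0, while most lists straddle 0.

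Set beside the shunt comparison, control against fetal libraries shows the change over birth in control lambs. It called 675 genes (5.17%) by the same edgeR model, and shunt against control called 522 (4%). The 522 fell to 64 without shunt 1 and shunt 2 and to 8, 6 and 9 without control 1, control 2 and control 4, was 61 with a replicate block and rose to 1784 and 2169 without shunt 3 and shunt 4. Leaving out fetal 1, fetal 2, fetal 3, fetal 4, shunt 1 or shunt 2 gave 23 to 70 calls. The 675 fell to between 259 and 378 without fetal 1, fetal 2, fetal 4, control 1, control 2 or control 4 and rose to 1672 without shunt 1 and shunt 2. These comparisons share the fetal or the control libraries, so only the values of single genes are placed side by side, and shunt against control is the test of whether the changes from fetal differ. For several genes the changes lay close together or their difference was not called. PITX3 was at 6.61 in control and 5.44 in shunt libraries against fetal, ITGB6 at 2.69 and 2.66, UCP2 at 2.42 and 2.34, PDXK at 1.80 and 1.75, and SLC25A20 at 0.89 and 1.11. The difference of shunt from control had 95% intervals of -2.46 to 0.13 for PITX3, -0.72 to 0.66 for ITGB6, -1.08 to 0.91 for UCP2, -0.66 to 0.57 for PDXK and -0.22 to 0.66 for SLC25A20. For CDK1 the changes were -2.42 and -3.50 and for CCND2 -1.44 and -1.24, with intervals of -2.30 to 0.15 and -0.52 to 0.91 for the difference. Intervals this wide do not show that shunt and control lambs changed alike.

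Other genes were called in control against fetal but not in shunt against fetal libraries, which by itself shows no difference. ALDH1A1 (ENSOARG00000012705), which produces retinoic acid and is known from the epicardium, stood at 23.1, 10.8, 57.9 and 35 CPM in fetal, 325, 571, 286 and 551 CPM in control and 83.2, 51.6, 25.2 and 167 CPM in shunt libraries. Controls lay above all others, and shunt overlapped with fetal libraries. Its log2 change from fetal was 3.77 in control and 1.37 in shunt libraries (0.75 without shunt 4, and called without shunt 3), and shunt against control was -2.41 (SE 0.566, adjusted p = 0.0427). The actin-severing GSN was at 1.44 and 0.15, with shunt against control at -1.29 (adjusted p = 0.0374), and the protease FURIN at 1.17 and 0.24, with -0.93 (adjusted p = 0.0428). LPL was at 1.77 and 0.52, with -1.25 (adjusted p = 0.0579), and the secreted serpin SERPINF1 at 1.99 and 1.02, with -0.97 (adjusted p = 0.216). The shunt change of SERPINF1 was 0.25 without shunt 1. MB was at 1.05 and 0.64, with -0.40 (adjusted p = 0.276). The thiol enzyme GLRX was at 1.64 and 0.84, with -0.80 (adjusted p = 0.126). MB and GLRX were called in shunt against fetal libraries without shunt 1 and shunt 2, at 0.84 (adjusted p = 0.0372) and 1.19 (adjusted p = 0.0138). QPCT, which forms pyroglutamate on peptides, was at 2.26 and 0.68, with -1.58 (adjusted p = 0.102).

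On the lower side, CCN2 was at -3.63 in control and -1.99 in shunt libraries against fetal, with shunt against control at 1.64 (adjusted p = 0.132). NPAS4, an activity-induced factor, was at -4.998 and -1.65, with 3.35 (adjusted p = 0.0756), and FST, which binds activins, at -2.98 and -1.83, with 1.15 (adjusted p = 0.366). ACTB, cytoplasmic actin, was at -1.35 and -0.63, with 0.72 (adjusted p = 0.162), the prostaglandin transporter SLCO2A1 at -1.33 and -0.60, with 0.73 (adjusted p = 0.0933), and the histone H2AZ1 at -0.85 and -0.52, with 0.33 (adjusted p = 0.349). Of these genes only GSN, FURIN and ALDH1A1 passed the test of the difference. CNN1, a smooth muscle gene also made by immature cardiomyocytes, was at -1.72 and -1.43, with no call in either.

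**Figure D5:**
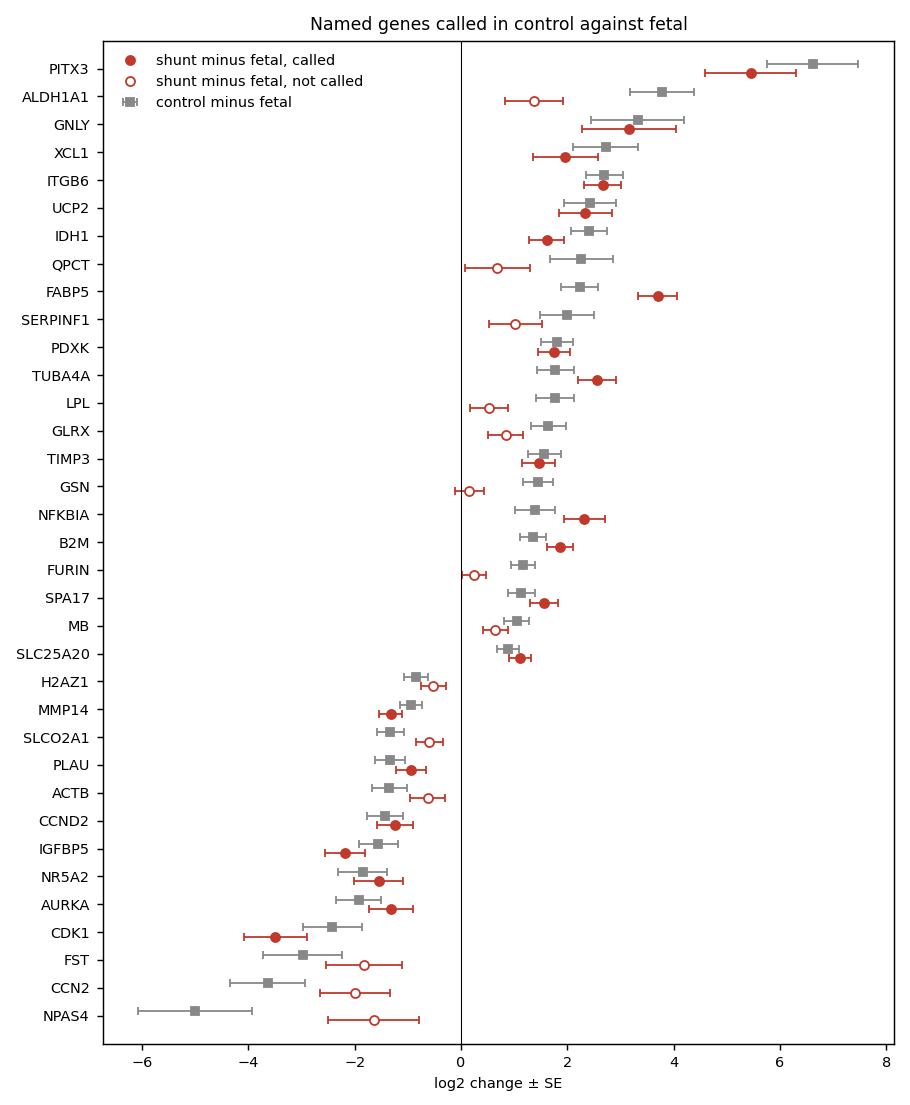
Log2 change from fetal with its SE for 35 of the genes with a symbol that were called in control against fetal libraries, in controls (grey squares) and in shunt libraries (red circles, filled where called). The genes were chosen on the control values, which favours larger control changes. ITGB6, UCP2 and PDXK have nearly the same position in both, while ALDH1A1, GSN and FURIN lie nearer 0 in shunt libraries.

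Other genes passed the test of the difference with the larger change in shunt libraries or with changes of opposite sign. A choice of them is given here, and further genes with a symbol that passed, such as LIPE, HSD11B1 and PYGM, are not described. TIMP1 stood at 6.1, 6.7, 9.65 and 5.29 CPM in the controls, below every fetal library, so that its change from fetal was -0.78 in control (adjusted p = 0.053) and 1.75 in shunt libraries, and shunt against control was 2.53 (SE 0.228, adjusted p = 0.000209). It was called in 12 of 12 fits that left out 1 library each. YAP1 was at -0.15 and -1.13, with shunt against control at -0.98 (adjusted p = 0.0336), and PEG10 at -1.39 and -3.89, with -2.49 (adjusted p = 0.0374). TPSB2 was at -1.11 and -5.61, with -4.50 (adjusted p = 0.0386), FABP5 at 2.23 and 3.69, with 1.46 (adjusted p = 0.0403), and ATF4 at 0.15 and 1.01, with 0.86 (adjusted p = 0.0455). SLC25A5 was at -0.39 and 0.72, with 1.11 (adjusted p = 0.0276), PUS1 at -0.47 and 0.88, with 1.35 (adjusted p = 0.0344), and FGF7 at 0.73 and -0.55, with -1.28 (adjusted p = 0.0336). HLF was at 1.27 and -1.18, with -2.46 (adjusted p = 0.0344), and CYTB at 0.79 and 2.13, with 1.34 (adjusted p = 0.0496). Except for TIMP1, these calls of shunt against control were fragile. In the fits that left out 1 library each SLC25A5 was called in 8 of 12, YAP1 and FGF7 in 5 of 12, HLF in 4 of 12, PEG10, TPSB2, ATF4, PUS1, GSN, FURIN and ALDH1A1 in 3 of 12 and FABP5 and CYTB in 2 of 12. Without shunt 1 and shunt 2 TIMP1 and SLC25A5 stayed called among these 14 genes.

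Most tested genes carry an Ensembl identifier and no symbol. The 2 higher ones with the smallest p were ENSOARG00000000729, at 44.3, 43.4, 38.3 and 35.1 CPM in fetal and 357, 233, 346 and 333 CPM in shunt libraries (log2 change 2.98, SE 0.255, edgeR adjusted p = 5.25e-05), and ENSOARG00000008821, at 11.2 to 16.7 CPM in fetal and 54.6 to 111 CPM in shunt libraries (log2 change 2.55, SE 0.254, edgeR adjusted p = 0.000179). The 2 lower ones were ENSOARG00000006184, at 18.8 to 31.7 CPM in fetal and 3.71 to 4.49 CPM in shunt libraries (log2 change -2.62, SE 0.22, edgeR adjusted p = 5.25e-05), and ENSOARG00000016042, at 7.44 to 10.5 CPM in fetal and 1.23 to 2.14 CPM in shunt libraries (log2 change -2.42, SE 0.248, edgeR adjusted p = 0.000181). In all 4 the shunt and fetal libraries did not overlap. In controls they were at 1.35, 2.61, -2.09 and -0.85 against fetal libraries, with shunt against control at 1.63 (adjusted p = 0.0145), -0.06 (adjusted p = 0.892), -0.53 (adjusted p = 0.124) and -1.56 (adjusted p = 0.017).

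Of the 66 named genes called in shunt against fetal libraries 23 stayed called in every alternative tried, 45 without each single library and 40 without shunt 1 and shunt 2. The 23 were ATP6, B2M, CDK1, COX1, COX2, COX3, CYTB, FABP5, IGFBP5, ITGB6, MMP14, ND2, ND3, ND4, NFKBIA, NR3C1, PEG10, PSIP1, PSMB8, TLR5, TPSB2, TUBA4A and YAP1. With library totals 44 stayed called, and CRYAB, GNLY, IDH1, IRF1, ND6, NFIL3, PDXK, PPARG, SLC25A20, SLC25A4, SPA17, TIMP1, TIMP3 and XCL1 kept their sign and lost the call, with log2 changes of 0.27, 2.32, 0.53, 0.52, 0.51, 0.19, 0.74, 0.48, 0.048, 0.046, 0.48, 0.76, 0.42 and 0.92. With limma voom 18 lost the call, among them XCL1, IRAK4 and PUS1 at 0.48 (adjusted p = 0.737), 0.59 (adjusted p = 0.251) and 0.56 (adjusted p = 0.154).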

How the data were processed

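Right ventricular free wall of fetal, control and shunt lambs was sequenced as 12 stranded mRNA libraries, 4 per group, with read pairs of 75 bases, per the labels' protocols. The deposited table holds whole-number counts (total counts, per the file headers) for 27054 genes, of which 8671 were 0 throughout. Aligner, counting tool, genome build and use of strand were not given in the sources used here. Overlapping genes on opposite strands and near-identical copies may thus share or lose reads. Symbols came from the deposited table, and no identifier matched the reference table, so no sequence or coordinate is given.

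The counts were analysed with edgeR 4.0.16 in R 4.3.3. A filter by group (filterByExpr) passed 13065 genes, and TMM scaling gave factors from 0.455 to 1.61. One quasi-likelihood model (glmQLFit, robust) was fitted to the 12 libraries and tested with glmQLFTest. The call threshold was 0.05 after Benjamini-Hochberg adjustment over all genes, and every adjusted p of a gene comes from this test unless limma voom is named. The SE is the absolute log2 change over the root of the F statistic. Levels are TMM-scaled CPM, whose sum differs between libraries. Ratios of summed counts are scaled by library size and have exact binomial intervals at 95%.

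The members and lists were chosen with earlier results of these data known. The naming rule took the 15 largest changes per direction among called genes with a symbol and at least 5 CPM in the higher group, every called member of 39 lists with 1209 genes and up to 4 members per list, up to 10 genes per direction called in control against fetal, a panel, and 2 identifiers without a symbol per direction. Of these 142 genes the text gives 66 called ones and a choice of the others, made after their values were seen. A few called genes are not reported here. Replicate libraries differed by a chi-square of at least 24.0 per gene, so none repeated another. Alternatives were other scalings, no filter, DESeq2 1.42.0, limma 3.58.1 (voom with sample weights), 8 libraries only, a replicate block and leaving out libraries.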

Additional observations from a re-analysis of the deposited data

Results flagged for a closer look

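In 16 of 194 groups of 4 libraries 1 library lay far from the others, measured by its gap to the nearest library over the group's range. Chance alone would mark about 1 in 20 groups if the values were normally distributed, which was not checked for these CPM values. Some groups lay near 0: in shunt libraries TPSB2 had 2 and PEG10 21 summed counts. Low or high in the shunt group were TPSB2 at 0.137 CPM and MYL2 at 10034 CPM in shunt 1, PEG10 at 0 CPM, SLC25A20 at 71.8 CPM and SLC25A4 at 5561 CPM in shunt 2, and XCL1 at 0.152 CPM, TIMP3 at 199 CPM, SQLE at 5.59 CPM and KDR at 36.4 CPM in shunt 3. In the fetal group these were SLC25A5 at 10.5 CPM in fetal 1, PSMB8 at 22.7 CPM, XCL1 at 0.227 CPM and LPL at 59.9 CPM in fetal 2, and FABP4 at 0.923 CPM, PEG10 at 1.80 CPM and NDUFB6 at 349 CPM in fetal 3. No cause was tested.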

How the results depend on the processing

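The number of genes called in shunt against fetal libraries was 2081 with DESeq2-style size factors, 2050 with TMM without the mitochondrially encoded genes, 2991 with DESeq2 and 1770 with no filter. It was 1073 (648 higher, 425 lower) in a fit of the 8 libraries, 1299 (749 and 550) with limma voom, 7933 (137 and 7796) with library totals and 1314 (740 and 574) without shunt 1 and shunt 2. Leaving out 1 library gave 957 to 2855 calls (551 to 1672 higher, 385 to 1209 lower). Control against fetal had 675 calls, 1248 with DESeq2, 2414 with voom, 1672 without shunt 1 and shunt 2 and 259 to 886 leaving out 1 library. Shunt against control had 522, and 1981, 67, 64 and 6 to 2169. The difference in mitochondrial share was 17.03 percentage points without shunt 1 and shunt 2, where no p under 0.0667 is possible, and 24.1 to 33.1 leaving out 1 library. With a replicate block the counts were 1444, 513 and 61. Deviations from the group means in same-numbered fetal and shunt libraries had correlations of -0.088, -0.053, -0.18 and 0.082. Control libraries were not part of that comparison, and such values cannot settle whether the numbers are a pairing. With library totals the log2 changes of IRAK4, ATP5PD, ATF4, NDUFA12, NDUFB6, PUS1, SLC25A5 and TAPBP turned to -0.10, -0.097, -0.11, -0.055, -0.094, -0.32, -0.28 and -0.55. Those of the uncalled SERPINF1, MRC1, GLRX, QPCT, MB, CPT1B, LPL, VEGFA, MYOZ2, TPM1, FURIN, GSN and MYL2 turned to -0.0095, -0.093, -0.042, -0.13, -0.27, -0.40, -0.52, -0.68, -0.60, -0.63, -0.76, -0.73 and -0.83. Leaving out 1 library gave NPPA -1.09 to 3.49 and NPPB -1.26 to 2.09 (both lowest without shunt 3), QPCT -0.030 to 0.98 and GSN -0.20 to 0.30 (both lowest without shunt 4), and ANKRD1 -1.04 to 0.018 (highest without shunt 1). ANKRD1 was at 0.44 without shunt 1 and shunt 2, and NPPB at -0.33 with voom. The causes were not tested. Shunt 1 and shunt 2 kept 7152139 and 7140136 counts outside the mitochondrial genes, which limits the precision of low genes there.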
